A study of Mus musculus with 12 samples.

Results

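Motor proteins turn ATP into movement along the cytoskeleton. Kinesins walk on microtubules, mostly towards the plus ends that lie at the axon tip, and carry vesicles, mitochondria and receptors outward. Cytoplasmic dynein, a complex of heavy, intermediate and light intermediate chains, moves towards minus ends and returns cargo to the cell body. Myosins move on actin and handle the last stretch in dendritic spines and growth cones, and many motor genes use alternative exons to change which cargo or adaptor is bound.

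The motor genes described here were all genes in the deposited gene models whose symbol begins with Kif, Myo or Dnah followed by a digit, or with Dync. The rule found 70 genes, of 22557 loci with a protein identifier (coding loci) and 35912 gene names in all. They were 38 kinesin genes, 25 myosin genes and 7 genes of cytoplasmic dynein. The Dnah part of the rule found 0 genes, because this annotation spells the axonemal dynein heavy chains Dnahc, and the set therefore holds no dynein of motile cilia. All but the pseudogene Kif22-ps, 69 in number, carried a protein identifier. Conventional myosins (Myh) and the kinesin-14 genes (Kifc) also fall outside the spelling of the rule.

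The study sequenced polyA RNA of the nucleus accumbens (NAc), a reward region of the ventral striatum, from C57BL/6 mice whose age is labelled 8 to 10 weeks, adult males of the J substrain by the study's methods. Each of the 4 groups had 3 pools, of 3 to 5 animals each by the labels. Repeated cocaine was 7 daily intraperitoneal injections at 20 mg/kg, set against 7 of saline, with tissue taken on the day after the last. Acute cocaine was 6 injections of saline and 1 of cocaine at 20 mg/kg, set against 7 of saline in a batch of its own. The gene models analysed here were deposited for the series as a whole. Their name contains coc7d1d, which resembles the repeated design, but which pools were used with them is not stated. Of 354 motor transcripts, 353 match the reference annotation GENCODE M1 by identifier, 339 with the same exons. Only 2 name the program Cufflinks as their source. They hold positions and identifiers of 87740 transcripts with 624665 exons, and no value for any pool. Depth, tissue markers and the effect of cocaine on a motor gene were therefore not examined. Every count below is complete for the file and has no sampling error, and a transcript in the models is not evidence that the NAc makes it. Where the same count was made over all coding loci it stands beside it, with no test of the difference.

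The sequences that carry most of what follows are short exons that one transcript of a motor gene includes and another skips. An exon was called a cassette when both of its neighbouring introns end where a single intron of another transcript of that gene begins and ends. The exons below lie in coding sequence, read 5′ to 3′ on the strand of the gene, with the exon in capitals and 15 bases of each neighbouring intron in lower case. Coordinates cover the whole printed run on mm9 (NCBIM37), and exon numbers count along the longest transcript that includes the exon. Shown first are the shortest ones, from genes of all 3 classes.
Myo15 exon 8 of 66, chr11:60300380-60300415, plus strand: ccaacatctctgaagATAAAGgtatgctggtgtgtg
Kif3a exon 10 of 18, chr11:53404204-53404242, plus strand: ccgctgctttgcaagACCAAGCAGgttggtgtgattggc
Myo5a exon 29 of 41, chr9:75035314-75035352, plus strand: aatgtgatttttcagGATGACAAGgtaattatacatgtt
Myo18a exon 11 of 42, chr11:77636150-77636191, plus strand: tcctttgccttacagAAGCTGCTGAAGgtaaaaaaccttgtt
Kif21a exon 29 of 36, chr15:90778740-90778784, minus strand: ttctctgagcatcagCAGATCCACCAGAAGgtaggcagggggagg
Dync1i2 exon 4 of 18, chr2:71065869-71065916, plus strand: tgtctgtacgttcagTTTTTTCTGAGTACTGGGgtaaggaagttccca
Each of these exons has a length divisible by 3, so that including or skipping it does not by itself shift the reading frame. For the Myo15 and Myo5a exons, no including and skipping coding transcripts ended their coding sequence at the same base.

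The 70 motor genes had 354 transcripts, a mean of 5.06 ± 4.25 (SD over genes) and a median of 4. Coding loci had a mean of 3.22 ± 3.22 and a median of 2. Of the motor genes, 53 (75.7%) had 2 or more transcripts, against 56.8% of coding loci. Motor genes are long, with a median of 27 exons in the transcript with most, against 6 over coding loci, and a median span of 62.1 kb against 15 kb. When only genes with 20 or more exons were counted, the share with 2 or more transcripts was 81.6% in 49 motor genes and 85.5% in 2482 coding loci. The means were then 5.78 and 5.76 transcripts, so that beside loci of many exons the motor genes had about as many transcripts.

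Myosin genes had the most transcripts per gene. Their mean was 6.72 ± 5.56 (SD, 25 genes) with a median of 5, the kinesin mean was 3.97 ± 2.79 (38 genes) with a median of 3, and the 7 dynein genes had 5.00 ± 4.08 with a median of 5. These spreads overlap widely, and 10 kinesin, 5 myosin and 2 dynein genes had a single transcript. Every myosin gene had at least 22 exons in its fullest transcript, with a median of 35, while kinesin genes had a median of 22.

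**Figure D1:**
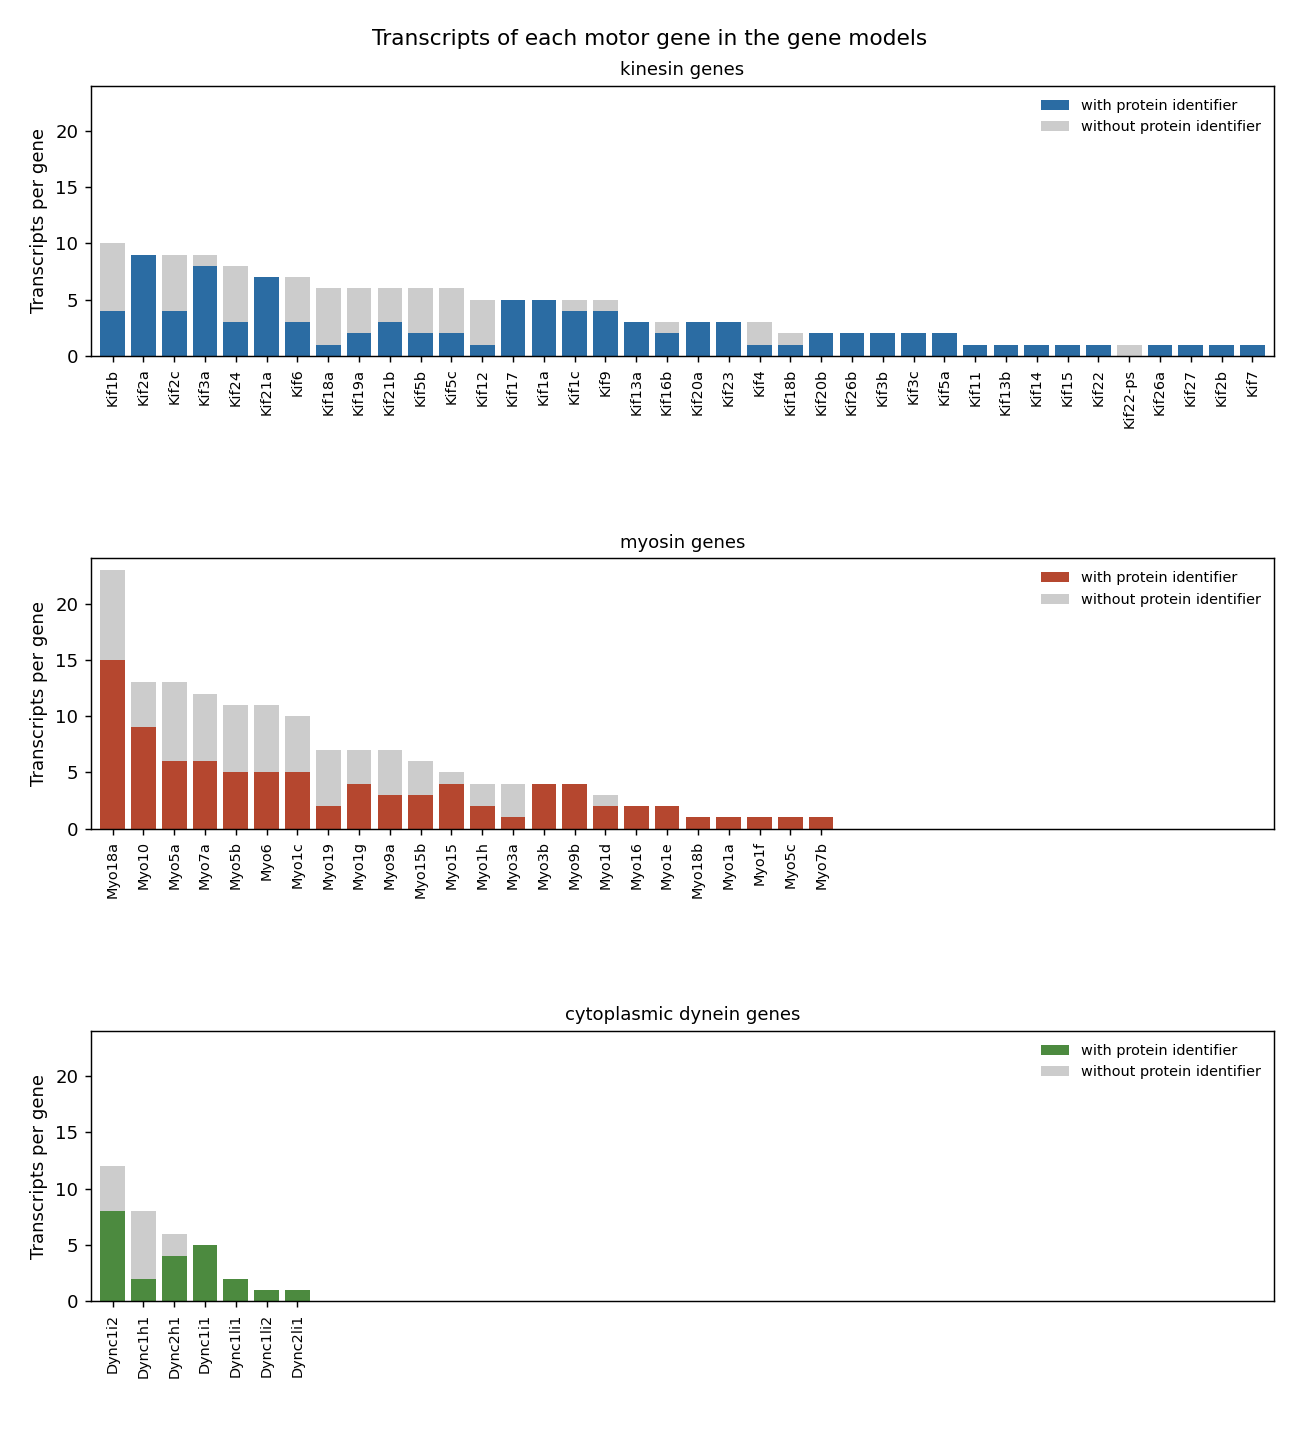
Bars give the number of transcripts of 69 of the 70 motor genes, with a panel for each class, with transcripts that carry a protein identifier in colour and the others in grey. Myo18a stands highest with 23, Kif1b leads the kinesins with 10 and Dync1i2 the dyneins with 12.

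Among kinesins, most transcripts were found for Kif1b, a kinesin-3 that carries mitochondria and synaptic vesicle precursors, with 10 transcripts of which 4 were coding. Kif2a, a kinesin-13 that takes microtubules apart rather than walking on them, had 9, all coding. Its relative Kif2c, which works at centromeres in mitosis, also had 9, of which 4 were coding. Kif3a, a subunit of heterotrimeric kinesin-2 used in cilia and axons, had 9 transcripts with 8 coding, and its partner subunit Kif3b had 2. Kif24 had 8, of which 3 were coding.

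The 3 kinesin-1 heavy chains, the main motors of fast axonal transport, differed among themselves. Kif5a, restricted to neurons, had 2 transcripts with 1 start site group and both carried the same protein identifier. Kif5b, which is made in most tissues, had 6 transcripts and Kif5c, enriched in neurons, also had 6, and in each only 2 were coding. Kif5c spans 155 kb, against 37.4 kb for Kif5a and 41.2 kb for Kif5b. Kif1a, the motor of synaptic vesicle precursors, had 5 transcripts, Kif17, a dendritic motor known for carrying NMDA receptor subunits, had 5, and Kif21a had 7, and all of these were coding. Kif21b, a relative of Kif21a found in dendrites, had 6, of which 3 were coding. The 5 transcripts of Kif17 share their locus with 5 transcripts of another gene, Sh2d5.

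Among myosins, Myo18a had 23 transcripts, 15 of them coding, more than any other motor gene. It encodes a myosin with little motor activity of its own, in forms with and without an N-terminal PDZ domain. Myo5a, the vesicle motor of melanocytes and dendritic spines that is mutated in dilute mice, had 13 with 6 coding, and Myo10, the motor of filopodia, had 13 with 9 coding. Myo7a, mutated in the deaf shaker-1 mouse, had 12 with 6 coding. Myo6, the myosin that moves towards the minus end of actin and takes part in endocytosis of AMPA receptors, had 11, and Myo5b, a motor of recycling endosomes, also had 11, with 5 coding in each. Myo9a, a class 9 myosin, had 7, Myo1d had 3, and Myo16, a myosin found mainly in brain, had 2.

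Among dyneins, the intermediate chain gene Dync1i2 had 12 transcripts with 8 coding, and Dync1i1, the form enriched in neurons, had 5, all coding. Dync1h1, the heavy chain that holds the motor domain, had 8 transcripts of which 2 were coding. Dync2h1, the heavy chain of the dynein that runs inside cilia, had 6 with 4 coding. The light intermediate chains Dync1li1, Dync1li2 and Dync2li1 had 2, 1 and 1. In this class the cargo-linking intermediate chain, and not the motor subunit, had most coding transcripts.

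Of the 354 motor transcripts, 216 (61.0%) carried a protein identifier, against 69.8% over coding loci and 62.7% over those with 20 or more exons. The share was 65.6% in kinesins, 56.0% in myosins and 65.7% in dyneins. By their types in GENCODE M1, the 138 transcripts without one were retained introns (76) and processed transcripts (60), apart from 1 of the pseudogene and 1 typed as coding. For Dync1h1 all 6 were retained introns, and for Kif1b also all 6. Among those with a protein identifier 10 were typed as targets of nonsense-mediated decay, 6 of them in kinesin genes. Of 215 with a length of coding sequence, 53 had under 50% of the longest in their gene. For Dync1h1 the 2 coding lengths were 13932 and 756 bases, so that the second model holds a small piece of the heavy chain only.

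A start site group gathers transcripts that Cufflinks tied to one transcription start. The motor genes had 227 such groups, a mean of 3.24 per gene against 2 over coding loci, and 44 of 70 genes (62.9%) had 2 or more groups, against 43.5% of coding loci. Counting genes with 20 or more exons only, the shares were 67.3% in motor genes and 71.5% in coding loci. Means were 2.37 groups in kinesins, 4.56 in myosins and 3.29 in dyneins. Only 132 of the groups held a coding transcript, and with these alone 32 genes (45.7%) had 2 or more groups, against 31.7% of coding loci. Among genes with 20 or more exons these shares were 49.0% in motor genes and 56.6% in coding loci.

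Many groups far inside a gene held short fragments without a coding sequence. Of the 159 groups after the first of their gene, 93 (58.5%) had no coding transcript, against 48.6% of the later groups of coding loci. Those 93 began at a median of 79.3% of the way through the gene, and 72 of them began in its second 50%. The 66 later groups with a coding transcript began at a median of 22.1%.

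Myo18a had 15 start site groups, of which 8 held coding transcripts. The group with most transcripts was not the first of the gene. It held 6 coding transcripts and began 38.1 kb downstream of the first, and another group 14 kb downstream held 3. Myo5a had 9 groups with 4 coding, Myo10 9 with 6, and Myo1c, a class 1 myosin of hair cells and of glucose transporter traffic, 9 with 5. In Myo10, 5 of the coding groups began between 120 and 151 kb downstream of the first start. One of them held transcripts of up to 21 exons, where the full gene has 41. A shorter Myo10 that lacks the motor domain is known in mouse brain. Kif3a had the most coding groups of any kinesin, 6 of 7, and 4 of its 7 groups began within 0.482 kb of each other. Kif17 had 3 groups, all coding, with the later ones 11.8 and 12 kb downstream. Dync1h1 had 8 groups with 2 coding, and Dync1i2 had 5, of which the 3 coding ones lay within 0.266 kb.

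**Figure D2:**
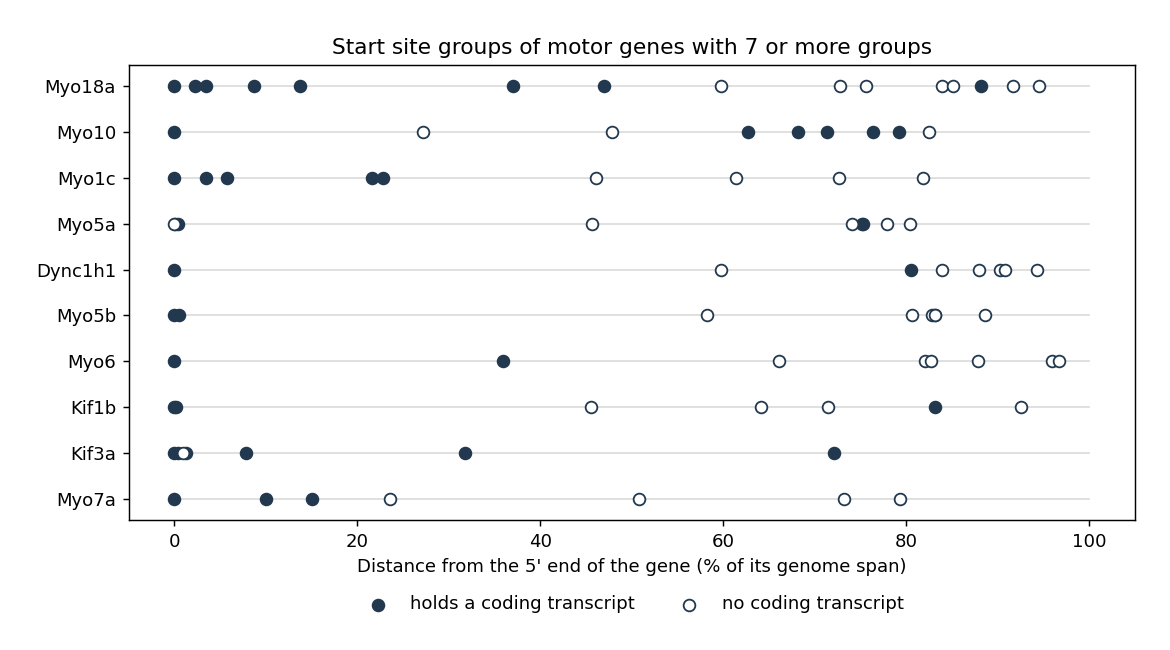
Lines are 10 of the motor genes with 7 or more start site groups, each drawn from its 5′ end to its 3′ end as % of its genome span, with filled points for groups that hold a coding transcript and open points for the others. The filled points lie towards the 5′ end in Myo1c and Myo7a, while Myo10 has 5 of them between 60% and 80% and Dync1h1 has mostly open points beyond 80%.

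The DNA around the starts differed between the first and the later groups. CpG islands, stretches where the dinucleotide CG is not depleted, mark the promoters of most broadly used genes. The observed over expected CpG ratio in the 500 bases each side of a start had a median of 0.718 over the 68 first groups of motor genes and exceeded 0.6 in 66.2% of them. Over the 159 later groups the median was 0.294, with 13.2% above 0.6. The same medians over coding loci were 0.591 (49.2% above 0.6) for first groups and 0.292 (22.2%) for later ones. Kif2b and Kif22-ps, each a single-exon gene, had no start site group.

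By class, the first groups of kinesins had a median ratio of 0.728, with 29 of 36 above 0.6, and those of dyneins 0.791, with 5 of 7. Myosin first groups had a median of 0.39, with 11 of 25 above 0.6, and so lay on both sides of 0.6. First means most upstream only. In Myo5b, for example, that group had 0.39 while the next one, which holds its fullest transcript, had 0.976. Among the myosins, Myo18a (0.707), Myo10 (0.80) and Myo6 (0.742) were high, and Myo16 (0.38) was low. Later coding groups had a median of 0.352 and later groups without a coding transcript 0.274, with 2 of the 93 (2.15%) above 0.6. Over coding loci these medians were 0.367, with 33.4% above 0.6, and 0.255, with 10.5% above. The group of Myo18a that held 6 transcripts had a ratio of 0.237. In Kif17 all 3 groups were above 0.6, at 0.729, 0.820 and 0.771, as were the 3 coding groups of Dync1i2, at 0.704, 0.726 and 0.712. The Dync1i2 starts lie within 0.266 kb and the later Kif17 starts also lie close together. Their windows therefore overlap, and these ratios describe largely the same DNA. In Kif1a only the first of the 3 groups was above 0.6, at 0.615, with 0.214 and 0.203 at the later ones.

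**Figure D3:**
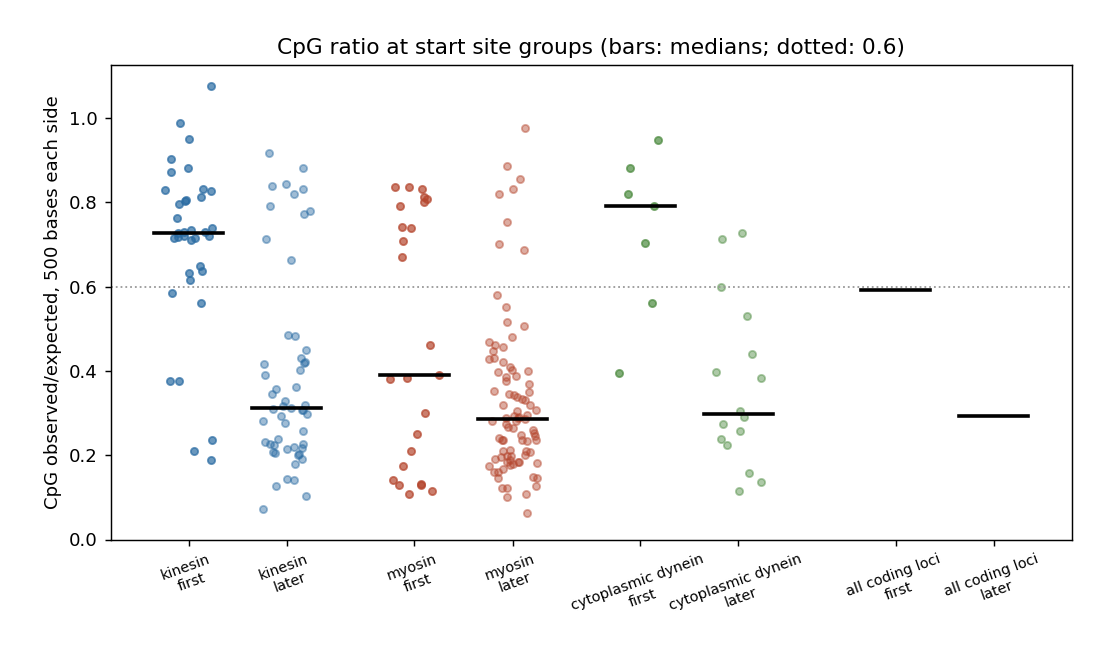
Points are start site groups of motor genes by class, with the first group of each gene apart from later groups, and the vertical axis is the observed over expected CpG ratio in 500 bases each side. Black bars are medians, the dotted line is at 0.6 and bars alone stand for all coding loci: the kinesin and dynein first groups lie mostly above the line, the myosin first groups lie on both sides, and later groups lie mostly below.

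The motor genes held 81 cassette exons in 37 genes (52.9%), against 26.7% of coding loci with at least 1. Among genes with 20 or more exons the shares were 61.2% of motor genes and 53.3% of coding loci. Kinesins had 40 in 19 of 38 genes, myosins 34 in 15 of 25, and dyneins 7 in 3 of 7. Per internal exon cassettes were not more frequent, at 81 of 2010 internal exons (4.03%) in motor genes and 5.93% over coding loci. In genes with 20 or more exons the values were 3.73% and 4.01%.

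The cassette exons of motor genes were often short and often of a length that does not by itself shift a reading frame. Of the 81, 59 (72.8%) had a length divisible by 3, against 51.4% of the cassette exons of coding loci. The share was 70.0% in kinesins, 76.5% in myosins and 71.4% in dyneins. It was 39.8% among the 1929 other internal exons of the same motor genes. Of the 64 cassettes with a coding transcript on each side of the choice, 53 (82.8%) were divisible by 3, against 58.7%. In genes with 20 or more exons the 2 shares were 85.5% in motor genes and 74.0% in coding loci. Of the 59, 49 lay in coding sequence. Where both transcripts were coding and the exon lay in coding sequence, 48 of 53 were divisible by 3. For 39 of these 53, an including and a skipping coding transcript ended their coding sequence at the same base, and all 39 were divisible by 3. Of the 17 cassettes without a coding transcript on both sides, 6 were.

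Microexons, here exons of at most 30 bases, are spliced largely in neurons and add a few residues to a protein. They made up 17 of the 81 motor cassettes (21.0%), against 5.89% of those of coding loci. Among genes with 20 or more exons the shares were 23.1% in motor genes and 11.5% in coding loci. All 17 were divisible by 3, as were 523 of the 638 cassettes of that length in coding loci. All 17 lay in coding sequence. They came from 12 genes: Kif1a with 3, Kif1b, Kif21a and Myo6 with 2 each, and Kif3a, Kif5c, Myo5a, Myo7a, Myo15, Myo18a, Dync1i2 and Dync2h1 with 1 each. Among the other internal exons of motor genes 14 of 1929 (0.726%) were that short. The longest cassette was the exon of 3762 bases near the start of Myo15, the gene mutated in the deaf shaker-2 mouse, where it codes for an N-terminal extension before the motor domain.

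**Figure D4:**
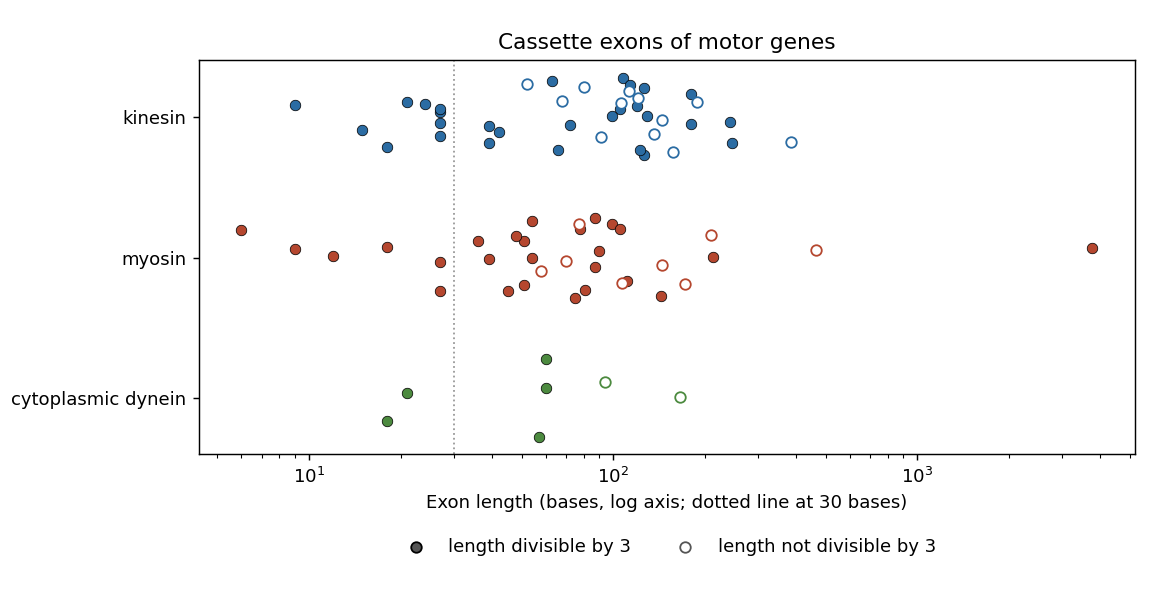
Each point is 1 of the 81 cassette exons of motor genes, by class and by length in bases on a log axis, filled where the length is divisible by 3 and open where it is not. Left of the dotted line at 30 bases all 17 points are filled, and the open points lie at 52 bases or more.

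Kif21a, a kinesin-4 of developing axons whose human form is mutated in an inherited disorder of eye movement, had the most cassettes, 6. Their lengths were 15, 21, 39, 39, 108 and 129 bases, all divisible by 3, all in coding sequence and all with transcripts of one start site group on both sides of the choice. The exon of 21 bases was included in 5 transcripts and skipped in 1, whereas the exon of 15 bases was included in 1 and skipped in 3. Kif2a had 5, of which those of 66 and 123 bases share their acceptor and differ in their donor by 57 bases. Kif12, a kinesin-12 of the kidney, had 4, none divisible by 3, at 91, 113, 136 and 157 bases. None of these 4 had a coding transcript that skips it. Kif1a had exons of 24, 27 and 27 bases, Kif1b of 18 and 27, Kif3a of 9, 72 and 126, and Kif5c of 27. Kif5a and Kif5b had none.

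Among myosins, Myo18a had 5 cassettes, of 12, 36, 45, 111 and 144 bases, all divisible by 3. Those of 36 and 144 bases share their acceptor and differ in their donor by 108 bases. The exon of 12 bases was included in 10 transcripts and skipped in 1, and that of 45 bases near the 3′ end was included in 4 and skipped in 9. Myo15 and Myo5a had 4 each, and Myo6 and Myo19 had 3 each. In Myo6 the 3 exons, of 27, 27 and 39 bases, lie at positions 28 to 33 in transcripts of 32 to 35 exons, where the tail is encoded. Inserts in this tail are known to direct the motor to different endocytic structures. Myo10 had 1 and Myo16 had none.

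In Myo5a the exons of 9, 81 and 75 bases are those known as B, D and F. They are numbered 29, 31 and 32 of 41, with D and F counted along different transcripts. D and F are not neighbours, since another exon lies between them. Exon B serves binding of the light chain DYNLL, D is linked to Rab10 and F to melanophilin on melanosomes. Exon B is printed above among the shortest, and D and F read as follows.
Myo5a exon 31 of 41, chr9:75040176-75040286, plus strand: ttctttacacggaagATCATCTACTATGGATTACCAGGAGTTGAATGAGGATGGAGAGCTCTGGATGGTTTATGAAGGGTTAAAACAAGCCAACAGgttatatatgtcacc
Myo5a exon 32 of 41, chr9:75043918-75044022, plus strand: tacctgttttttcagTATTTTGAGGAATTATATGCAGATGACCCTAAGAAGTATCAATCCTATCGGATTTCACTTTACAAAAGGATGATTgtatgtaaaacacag
Exon B was included in 3 transcripts and skipped in 4, D was included in 4 and skipped in 3, and F was included in 1 and skipped in 5. The melanocyte exon F was thus the one with fewest including transcripts.

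Among dyneins, Dync1i2 had cassettes of 18, 60 and 94 bases, Dync1i1 of 60 and 166, and Dync2h1 of 21 and 57. The exons of 60 bases were the 5th of 17 in Dync1i1 and the 6th of 18 in Dync1i2, in the N-terminal part of the chain that binds dynactin and regulators. The exons of 18 and 94 bases of Dync1i2 end at the same donor and differ at the acceptor by 76 bases. The heavy chain Dync1h1, with up to 77 exons, had no cassette, nor did the light intermediate chains.

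Some paralogous genes held cassettes of like length and sequence. Cassette exons of different genes of one family were aligned where their lengths differ by at most 9 bases, and both lie in coding sequence, which gave 13 pairs. The closest was the pair in Dync1i1 and Dync1i2, with 46 of 60 bases identical (76.7%). Next came exons of 27 bases in Kif1a and Kif1b, with 20 of 27 identical (74.1%). In Kif1b the only including transcript starts late in the gene, so that its exon is the 2nd of 13 there. Both pairs are shown to let their bases be compared.
Dync1i1 exon 5 of 17, chr6:5734424-5734513, plus strand: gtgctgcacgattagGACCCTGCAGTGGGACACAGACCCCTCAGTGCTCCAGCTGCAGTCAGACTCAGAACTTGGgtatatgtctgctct
Dync1i2 exon 6 of 18, chr2:71071691-71071780, plus strand: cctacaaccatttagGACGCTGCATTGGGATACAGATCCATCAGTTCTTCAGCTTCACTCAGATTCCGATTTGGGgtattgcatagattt
Kif1a exon 37 of 48, chr1:94931108-94931164, minus strand: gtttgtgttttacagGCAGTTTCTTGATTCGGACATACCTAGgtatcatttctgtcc
Kif1b exon 2 of 13, chr4:148569567-148569623, minus strand: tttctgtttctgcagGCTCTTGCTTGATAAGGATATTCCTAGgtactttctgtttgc
Exon D of Myo5a and an exon of 78 bases in Myo5b followed, with 54 of 83 aligned positions identical (65.1%). The other 10 pairs lay between 43.8% and 58.6%, and these include pairs of different exons within the same 2 genes.

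The study examined A2BP1 (RBFOX1), a splicing factor of neurons that binds UGCAUG in RNA, so the introns next to the cassettes were searched for TGCATG on the strand of the gene, within 150 bases of the exon. A match was present for 17 of 81 motor cassettes (21.0%), against 12.8% of those of coding loci. It lay upstream for 8 and downstream for 11, some having both. By class these were 6 of 40 in kinesins, 9 of 34 in myosins and 2 of 7 in dyneins. With 300 bases the shares were 32.1% and 21.7%, and with the shorter GCATG they were 37.0% and 27.8%. The 2 dynein exons, in Dync1i2, overlap and share their flank. A match is a description of the letters and does not show that the factor binds.

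In Kif21a 3 of the 6 cassettes had TGCATG downstream, those of 15, 21 and 39 bases, at 55, 109 and 129 bases from the exon. The Dync1i2 exon of 18 bases had it on both sides, 129 bases upstream and 36 downstream. The Myo18a exon of 12 bases had it at both 26 and 19 bases upstream. An exon of 48 bases in Myo9b, the other class 9 myosin, had 3 downstream, at 12, 26 and 94 bases. The windows below show TGCATG in capitals and intron in lower case.
Kif21a, downstream of the exon of 15 bases, chr15:90778682-90778711, minus strand: actccactgattTGCATGgaacaaaatgag
Dync1i2, downstream of the exon of 18 bases, chr2:71065926-71065955, plus strand: ctgtgtgtagttTGCATGtgtcgctttctg
Myo18a, upstream of the exon of 12 bases, chr11:77636121-77636150, plus strand: actgtttttcttTGCATGcTGCATGctggt
Myo6, downstream of the exon of 27 bases that is the 29th of 35, chr9:80141443-80141472, plus strand: gtaacttcaaatTGCATGaaattataggga

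**Figure D5:**
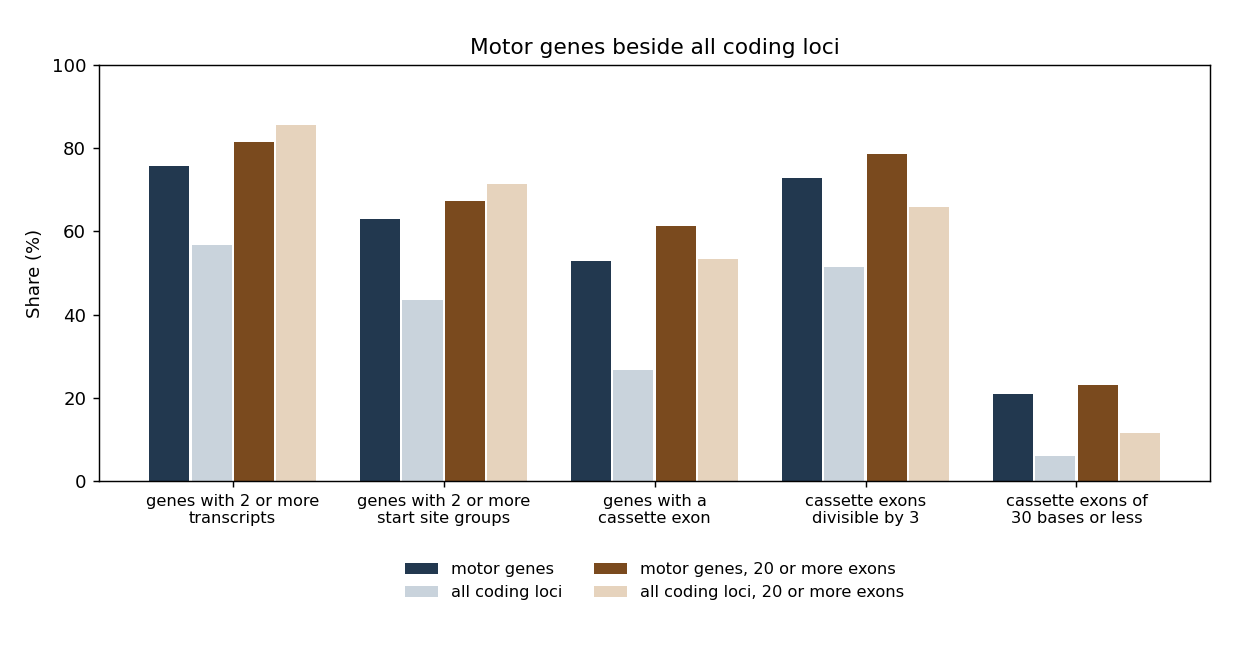
Bars give 5 shares in % for motor genes, for all coding loci, and for both when only genes with 20 or more exons are counted. Motor genes exceed all coding loci in every share, but beside loci of 20 or more exons they are lower for transcripts (81.6% against 85.5%) and start site groups (67.3% against 71.5%) and higher for the 3 measures of cassette exons.

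Other choices of splice site were fewer than cassettes. Acceptors joined to a shared donor differed in 20 pairs of sites in 11 motor genes (15.7%), against 15.8% of coding loci. Of these distances 13 (65.0%) were divisible by 3, against 49.1%. Every pair was counted, so 3 acceptors gave 3 pairs in Dync1i1 (33, 51 and 84 bases) and in Kif1c (14, 60 and 74). Such pairs are not independent of each other. Donors joined to a shared acceptor differed in 14 pairs in 14 motor genes (20.0%), against 14.3%, and 7 of them (50%) by a multiple of 3, against 38.0%. Acceptors exactly 3 bases apart, which add or drop a single residue, made up 4 of the 20 pairs, against 834 of 5288 over coding loci. They were found in Dync1i2, Kif17, Myo15b and Myo9b. Most of the 2226 introns of motor genes, 98.0%, began with GT and ended with AG on the mm9 genome. A donor that began as ATATCCT or GTATCCT, the mark of the minor spliceosome, was present in 6 (0.27%), against 0.331% of introns of coding loci. These were in Dync1li1, Dync1li2, Kif6, Myo10, Myo1e and Myo7b, and so included both light intermediate chains of dynein-1.

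Motor genes varied widely in span. The longest in each class were Kif26b at 404 kb, Myo3b at 390 kb and Dync1i1 at 302 kb, and the shortest were Kif22-ps at 1.98 kb, Myo1g at 14.4 kb and Dync1li2 at 25.4 kb. The longest intron measured 148 kb in Kif26b, 94.6 kb in Myo3b and 104 kb in Dync1i1, so that most of each span lay outside it. Most exons in each class were found in Dync2h1 (90), Myo15 (66) and Kif1b (49). Kif2b, a kinesin-13, had only 1 exon, as did the pseudogene Kif22-ps, and the fewest in the other classes were 22 in myosins (Myo1d and Myo1g among them) and 13 in dyneins.

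Genes that work with the motors but fall outside the rule were counted from a list of 35 partners, of which 34 were found. They had 165 transcripts with a median of 3.5 per gene, 111 start site groups, and 16 cassette exons in 11 genes. Mapk8ip3 (JIP3), an adaptor of kinesin-1 and dynein, had the most transcripts, 20. The kinesin light chain Klc1 and the dynactin subunit Dctn1, which holds dynein to its cargo, had 12 each, and the dynein adaptor Hook1 had 11. Dctn6, a small dynactin subunit, had 5 cassette exons. The 14 axonemal Dnahc genes had 40 transcripts with a median of 2.5 and 6 cassettes in 5 genes. The 13 conventional Myh genes had 59 with a median of 4, led by the non-muscle Myh10 with 10, and the 5 Kifc genes had 10 with a median of 2.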

How the data were processed

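PolyA RNA of pooled NAc was sequenced from 12 pools. Per the submitters' processing notes, tools were TopHat, Cufflinks, Cuffdiff and CASAVA on mm9 (NCBIM37), with version numbers not given in the sources used here. Exon models deposited by the authors give start and end coordinates and gene, locus, start site group and protein identifiers, with no count, RPKM or other value per pool, so no test between groups was run.

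Members were taken by symbol, and coding transcripts by protein identifier. A coding locus is the transcripts of 1 gene name at 1 locus, for members too. Sequences came from the NCBIM37 genome and types and coding lengths from GENCODE M1 of the same build, with 353 of 354 transcripts matched by identifier and 339 with the same exons. Pairs of exons were aligned globally (match 1, mismatch -1, gap opening -2, extension -0.5). Versions were Python 3.11.15, pandas 2.3.3, Biopython 1.88, numpy 2.4.6 and matplotlib 3.10.9. Cassette calling, merging of starts, strand handling, the member rule and the classes were first tested on small made-up gene models. No such test was made of the other steps, such as the CpG ratio, motif search and exon alignment.

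Genes named were, per class, the 5 with most transcripts, most start site groups or most cassette exons, those with extreme spans or exon numbers, and a list of 25 transport genes. Printed sequences were a choice from coding cassette exons of that list up to 90 bases and coding microexons of any motor gene, and windows around the motif. A gene that this rule also names is not reported here on its own and is left out of the plots by gene, but is counted in all totals. Others named, such as Myo9b, Kif12, Hook1 and Dctn6, include genes chosen after their values were seen. The members and lists were chosen with earlier results of these data known. Alternatives changed the rule, the transcripts counted, the start sites and the cassette definition.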

Additional observations from a re-analysis of the deposited data

How the results depend on the processing

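Of 21 alternatives over 9 results, 12 stayed within 1.5 times the value, or for a share within its 95% Wilson interval, and 9 moved beyond that. The interval served only as a yardstick, since the counts have no sampling error. Its width depends on the share and on the number of genes or exons. No groups of samples were compared. For some alternatives, among them any spanning intron and a shared start site group, no value over coding loci is given. Whether motor genes then still differ from coding loci in the same direction was not checked. With only transcripts that carry a protein identifier, 216 of the 354 transcripts remained, start site groups numbered 132 in place of 227, and 45.7% of genes in place of 62.9% had 2 or more groups. Cassette exons numbered 136 when any spanning intron counted as skipping, and 52 when both transcripts had to share a start site group, in place of 81. The share divisible by 3 was 82.8% with both transcripts coding and 58.1% with any spanning intron, in place of 72.8%. TGCATG was found for 32.1% with 300 bases and GCATG for 37.0%, in place of 21.0%. Among the 12, the set grew to 104 genes when motor genes that the spelling misses were added, and 78 of their 107 loci (72.9%) had 2 or more transcripts. Distinct 5′ ends numbered 313, and 41.4% of genes in place of 52.9% had a cassette exon with both transcripts coding. An alternative added after seeing the data counted overlapping cassettes once and gave 75. No paired analysis was possible because the file holds no value per pool, and for the same reason no pool could be left out in turn. All counts depend on how fully the annotation describes a gene, which was not tested.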
